A study of Homo sapiens with 6 samples.

Results

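The genes described here encode the receptors and soluble ligands with which retinal pigment epithelium binds and engulfs particles: MERTK, AXL and TYRO3, their ligands GAS6 and PROS1, the bridging protein MFGE8, and the scavenger receptors SCARB1 and CD36. They were chosen by name and found by their Entrez gene IDs. All 8 were present among the 17945 genes read, and 7 of them were among the 11599 genes that passed a filter of at least 1 FPKM in at least 3 of 6 libraries. FPKM divides a gene's fragments by its transcript length and the library's mapped total, so levels of different genes can be set side by side. The libraries came from ARPE-19, an established line of human retinal pigment epithelium labelled WT. Of these, 3 had been exposed for 24 h to DMSO, the solvent control, and 3 to 320 nM cinobufagin, a toad venom steroid that blocks the sodium pump. All 6 shared the growth medium, DMEM with fetal bovine serum. Whether a group's libraries stem from independent cultures is not stated, and its p-values reflect the variation among these libraries alone, which may be technical.

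Retinal pigment epithelium clears the outer segment tips that photoreceptors shed each day. MFGE8 and the ligands GAS6 and PROS1 bind phosphatidylserine on the shed membrane. MFGE8 links it to the integrin of ITGAV and ITGB5, which holds the particle. GAS6 links it to the receptor tyrosine kinases TYRO3, AXL and MERTK, known together as the TAM family, and PROS1 links it to TYRO3 and MERTK. MERTK signalling starts engulfment, and its loss causes retinal degeneration in rats, mice and people. CD36 and SCARB1 are related membrane proteins that bind oxidised lipids and lipoproteins.

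The 6 libraries summed to 534694 to 560721 FPKM, and read totals are unknown here. Libraries of the same treatment correlated over genes, which do not count as replicates, at a Pearson's r of 0.996 to 0.997, and those of different treatments at 0.962 to 0.963. The pigment epithelium factors OTX2 and MITF were at 48.2 to 48.8 and 42.7 to 47.1 FPKM under DMSO, whereas TTR was listed at 0 in all libraries and the visual cycle isomerase RPE65 at no more than 0.03 FPKM. In all, 9 of 15 pigment epithelium markers passed the filter, and of these 2 rose (OTX2 and MITF), 4 fell (KRT8, KRT18, PMEL and SERPINF1) and 3 did not pass. Over all genes tested 39.2% rose and 28.4% fell, 67.7% in all. These markers carry no test as a set. The summed level of the pigment epithelium markers, most of it from KRT8 and KRT18, lay between 868 and 935 FPKM under DMSO and between 694 and 699 under cinobufagin. Of 8 macrophage markers, 5 were in the table and 1, the lysosomal protein gene CD68, passed the filter. PTPRC was listed at 0 in all libraries and CD14 at no more than 0.05 FPKM. The summed macrophage list, nearly all CD68, lay between 113 and 127 FPKM under DMSO and between 79.0 and 80.03 under cinobufagin, and its part in the results was not tested. No endothelial or photoreceptor marker passed the filter, and of the 5 fibroblast markers PDGFRB alone did, at 13.3 to 14.4 FPKM.

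In DMSO-treated cells AXL was by far the most abundant TAM receptor transcript, with AXL at 138 ± 3.06, TYRO3 at 5.33 ± 0.303 and MERTK at 1.17 ± 0.112 FPKM (SD, n = 3). AXL had a level above that of 95.4% of genes tested, whereas MERTK was above 2.14% of them. Transcripts of the soluble proteins were abundant, since MFGE8 stood at 132.0 ± 6.93, PROS1 at 95.6 ± 5.51 and GAS6 at 19.97 ± 1.56 FPKM. SCARB1 was at 37.2 ± 2.53 and CD36 at 0.393 ± 0.200 FPKM. In order of level the genes ran AXL, MFGE8, PROS1, SCARB1, GAS6, TYRO3, MERTK and CD36, and only AXL and MFGE8 had overlapping ranges.

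**Figure D1:**
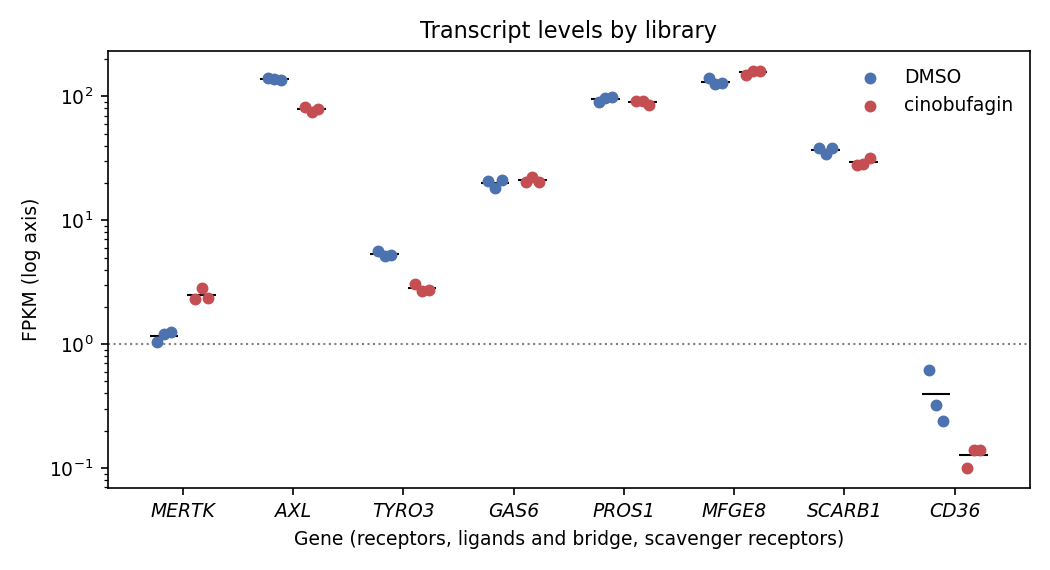
FPKM of each gene on a log axis, with 1 point per library, a bar at the mean of each group of 3 and a dotted line at the filter of 1 FPKM. MERTK and MFGE8 are higher and AXL, TYRO3, SCARB1 and CD36 lower in all 3 cinobufagin libraries, while GAS6 and PROS1 overlap between groups.

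Cinobufagin moved the TAM receptors in opposite directions. MERTK was 2.14-fold higher, AXL was 1.76-fold lower and TYRO3 was 1.89-fold lower in mean FPKM. MFGE8 rose and SCARB1 fell by smaller amounts, and the TAM ligands GAS6 and PROS1 did not pass the test. Of the 7 genes tested, 3 fell, 2 rose and the other 2 missed the threshold (limma with a mean-variance trend, Benjamini-Hochberg adjusted p under 0.05 over all genes tested). Among all genes tested 67.7% were called, with 39.2% rising and 28.4% falling, so the share called here is close to the background. The groups did not overlap in 5 of the 7 genes and in 70.8% of all genes tested. On the log2(FPKM + 1) scale none of the 7 changed by 1 or more, against 4.29% of all genes tested, although MERTK exceeded that size in mean FPKM. Their median log2 fold change was -0.09, against 0.06 over all genes tested. These are bulk measurements, so a change in every cell and a change in the share of cells that express a gene cannot be told apart.

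**Figure D2:**
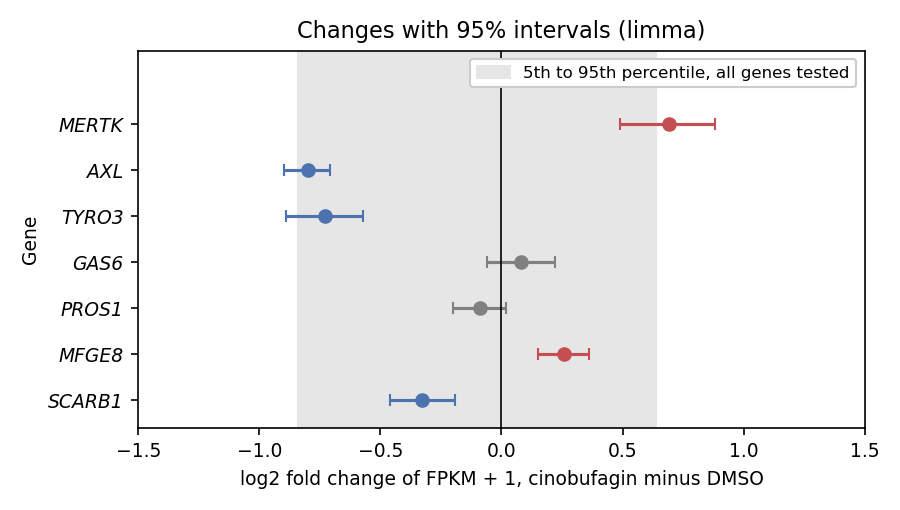
Log2 fold change of FPKM + 1, cinobufagin minus DMSO, with 95% intervals from limma for the 7 genes tested. Red marks a rise, blue a fall and grey no call, the shaded band spans the 5th to the 95th percentile of all genes tested (-0.84 to 0.64), and MERTK lies above the band, at 0.69, and AXL near its lower edge, at -0.80.

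MERTK (gene ID 10461) lies on chromosome 2 from 111898479 to 112029561 on GRCh38, on the plus strand. Its values were 1.04, 1.21 and 1.25 FPKM in DMSO libraries and 2.31, 2.82 and 2.35 FPKM in cinobufagin libraries. The lowest cinobufagin library was well above the highest DMSO library, although MERTK remained a low-level transcript in both groups. The log2 fold change of FPKM + 1 was 0.69 (SE 0.09, limma adjusted p = 2.93e-05), and 11.1% of genes tested had a larger change in either direction. With a pseudocount of 0.1 it was 1.03, since adding 1 understates changes of low genes. Every library was above the filter, so MERTK did not enter the test through the treated group alone. MERTK overlaps RN7SL297P on the same strand and the processed pseudogenes AC104651.1 and AC104651.2 on the opposite strand. How reads were shared with them is not stated.

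AXL (gene ID 558) lies on chromosome 19 from 41219203 to 41261766, on the plus strand. AXL is a growth and survival receptor of many cultured and tumour cells, for which GAS6 is the main ligand. Its values were 141, 137 and 135 FPKM in DMSO libraries and 81.6, 75.5 and 78.7 FPKM in cinobufagin libraries. The replicates were tight, and each treated library was far below each control. The log2 fold change was -0.80 (SE 0.04, limma adjusted p = 1.9e-08), with 7.73% of genes tested showing a larger change. AXL moved from the 95.4th to the 91.6th percentile of level and so stayed an abundant transcript.

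TYRO3 (gene ID 7301), the TAM receptor best known from the nervous system, lies on chromosome 15 from 41557675 to 41583586, on the plus strand. Its values were 5.68, 5.12 and 5.20 FPKM in DMSO libraries and 3.03, 2.66 and 2.76 FPKM in cinobufagin libraries. The groups did not overlap, and the log2 fold change was -0.73 (SE 0.07, limma adjusted p = 3.92e-06). A pseudogene copy, TYRO3P, is annotated in GENCODE 29 and how reads were shared with it is not stated, which makes this value less certain than that of AXL.

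The opposite movements changed the balance within the family. The summed FPKM of AXL, MERTK and TYRO3 averaged 144 ± 3.23 with DMSO against 83.9 ± 2.96 with cinobufagin (SD, n = 3), which is 41.9% lower. MERTK made up 0.703%, 0.843% and 0.882% of that sum in DMSO libraries and 2.66%, 3.48% and 2.80% in cinobufagin libraries. The AXL share went from 95.5% ± 0.0787 to 93.7% ± 0.374, a difference of -1.84 percentage points (two-sided exact permutation p = 0.1, the smallest that 3 against 3 libraries can give). AXL was thus the most abundant TAM transcript in all 6 libraries, by 108 to 136 times over MERTK in DMSO and by 26.8 to 35.3 times in cinobufagin libraries. With cinobufagin, MERTK and TYRO3 came to overlapping levels, at 2.31 to 2.82 and 2.66 to 3.03 FPKM.

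**Figure D3:**
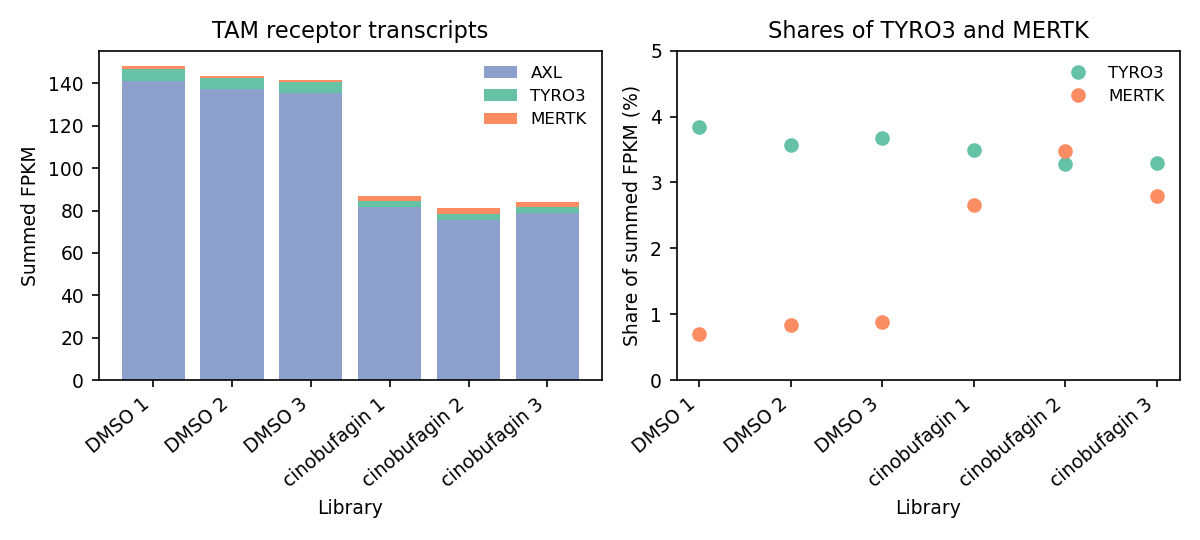
The left panel stacks the FPKM of AXL, TYRO3 and MERTK in each library, and the right panel gives the shares of TYRO3 and MERTK in that sum, in percent. The mean sum is 144 FPKM with DMSO and 83.9 with cinobufagin, the MERTK share is 0.703% to 0.882% with DMSO and 2.66% to 3.48% with cinobufagin, and the TYRO3 share is 3.57% to 3.84% with DMSO and 3.28% to 3.49% with cinobufagin.

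Because AXL and MERTK moved apart, the bases just upstream of both genes are shown, from RefSeq windows on GRCh38.p14, plus strand. AXL is printed at chr19:41218973-41219202 and MERTK at chr2:111898357-111898478, each ending before the first annotated base of the gene. Capitals mark GC boxes (GGGCGG or its reverse complement CCGCCC), the element bound by SP1 and SP3.
AXL: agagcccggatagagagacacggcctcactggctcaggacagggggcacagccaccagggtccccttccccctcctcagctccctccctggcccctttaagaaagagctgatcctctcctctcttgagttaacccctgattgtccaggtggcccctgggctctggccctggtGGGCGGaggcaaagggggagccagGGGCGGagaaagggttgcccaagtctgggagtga
MERTK: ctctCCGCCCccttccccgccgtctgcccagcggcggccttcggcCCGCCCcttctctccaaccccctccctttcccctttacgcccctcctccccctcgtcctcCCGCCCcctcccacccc

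The printed AXL stretch of 230 bases was 63.9% G and C with 2 GC boxes, and the MERTK stretch of 122 bases 75.4% with 3. Over the 250 bases before the RefSeq start, AXL held 2 GC boxes and MERTK 4, and 42.3% of 27305 such windows held at least 1. TYRO3, which fell, and MFGE8, which rose, each held 3. GAS6 held 3 and PROS1 2, and neither was called. SCARB1, which fell, had no window, and a link of box number to direction of change was not tested. Of the 7 genes with a window, CD36 had no GC box and was the one with a TATA box (TATAAA or its reverse complement), which 11.1% of windows held. The E-box CACGTG, which 6.49% of all windows held, was in none of the 7 windows. TGANTCA, the AP-1 site, which 6.6% of all windows held, was in that of TYRO3. These matches describe letters and not bound sites. SP1 was at 15.6 ± 0.450 and 16.2 ± 0.346 FPKM under DMSO and cinobufagin (SD, n = 3; limma adjusted p = 0.439), and SP3 was at 13.1 ± 1.39 and 12.2 ± 0.440 FPKM (limma adjusted p = 0.324). These factors were singled out after their values were seen, and their part in the changes was not tested.

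Transcripts of the TAM ligands did not differ detectably. GAS6 (gene ID 2621, chromosome 13, 113820549 to 113864067, minus strand), a vitamin K-dependent protein that binds all TAM receptors, was at 20.7, 18.2 and 21.03 FPKM in DMSO libraries and at 20.5, 22.5 and 20.5 FPKM in cinobufagin libraries. The ranges overlapped, and the log2 fold change of 0.08 had a 95% interval of -0.06 to 0.22 (limma adjusted p = 0.262). PROS1 (gene ID 5627, chromosome 3, 93873033 to 93980003, minus strand) encodes protein S, a TAM ligand that is also an anticoagulant cofactor. It was at 89.3, 97.9 and 99.5 FPKM in DMSO libraries and at 91.0, 92.2 and 85.5 FPKM in cinobufagin libraries. Here too the ranges overlapped, with a log2 fold change of -0.09 (95% interval -0.20 to 0.02, limma adjusted p = 0.122). The PROS1 value passed the threshold at -0.13 when each library was centred on its median (limma adjusted p = 0.0335) and without DMSO replicate 1 (-0.14, limma adjusted p = 0.0153). Over all its alternatives the adjusted p ran from 0.0153 to 0.498.

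PROS1 exceeded GAS6 in every library. GAS6 made up 17.3% ± 1.59 of their summed FPKM with DMSO and 19.1% ± 0.653 with cinobufagin (SD, n = 3). The difference of 1.83 percentage points was smaller than the range of the DMSO libraries, 15.7% to 18.8% (two-sided exact permutation p = 0.2), and it was 1.00 without DMSO replicate 2. GAS6 overlaps the antisense transcript GAS6-AS1 and AXL the antisense transcript AC011510.1, whose reads cannot be told apart without strand. PROS1 has a pseudogene copy, PROS2P, in GENCODE 29.

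MFGE8 (gene ID 4240, chromosome 15, 88898683 to 88913411, minus strand) was the soluble protein that rose. Its values were 139.7, 127 and 128 FPKM in DMSO libraries and 150.2, 162 and 161 FPKM in cinobufagin libraries. The groups did not overlap, but the change was small, at 0.26 on the log2 scale (SE 0.05, limma adjusted p = 0.000501), and 49.9% of genes tested changed more. With AXL falling, MFGE8 became the most abundant of the 8 transcripts, above PROS1 and AXL with no overlap of ranges.

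The scavenger receptors were both lower, at very different levels. SCARB1 (gene ID 949, chromosome 12, 124776856 to 124882668, minus strand), the receptor that takes up cholesterol esters from high-density lipoprotein and carotenoids, was at 38.7, 34.2 and 38.6 FPKM in DMSO and at 28.0, 28.5 and 31.8 FPKM in cinobufagin libraries. It was 20.8% lower with no overlap of the groups (log2 fold change -0.33, SE 0.06, limma adjusted p = 0.000635). CD36 (gene ID 948, chromosome 7, 80369575 to 80679277, plus strand), a receptor for oxidised lipids and long-chain fatty acids, was at 0.62, 0.32 and 0.24 FPKM in DMSO and at 0.10, 0.14 and 0.14 FPKM in cinobufagin libraries. No CD36 value reached the filter of 1 FPKM, so it was not tested with the others, and GNAT3 lies within its span on the opposite strand.

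Mean CD36 was 3.11-fold lower with cinobufagin. Fitted without the filter, CD36 had a log2 fold change of -0.30 with a pseudocount of 1 (limma adjusted p = 0.0328) and of -1.05 with a pseudocount of 0.1 (limma adjusted p = 0.0149), so its size depends on the pseudocount. The former came from a fit where 50.4% of 16304 genes were called and 22.2% fell, and 6 of the 8 genes were then called. The call was lost without DMSO replicate 2 (limma adjusted p = 0.0534) and without cinobufagin replicate 1, 2 or 3 (limma adjusted p = 0.0973, 0.0783 and 0.0816), and without DMSO replicate 1 the log2 fold change was -0.18. SCARB1 made up 98.4% to 99.4% of the summed FPKM of both receptors in DMSO and 99.5% to 99.6% in cinobufagin libraries (two-sided exact permutation p = 0.1, the smallest possible). Their mean difference was 0.613 percentage points, and 0.345 without DMSO replicate 1.

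The other genes of the uptake pathway were described from 8 lists with 108 genes, of which 86 were tested, 44 rose and 20 fell while 22 did not pass. That is 51.2% rising and 23.3% falling, 74.4% called in all, against 39.2%, 28.4% and 67.7% over all genes tested. Of the 44 rises, 11 came from the phagosome maturation list, where the rise of several genes was known when the list was drawn. The median log2 fold change of the 86 genes was 0.13, against 0.06 over all genes tested. The lists carry no test of their own here.

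Among other receptors and bridging proteins, the integrin partner of MFGE8 was abundant. ITGAV was at 186 ± 19.7 and 180.1 ± 0.701 FPKM under DMSO and cinobufagin and did not pass (SD, n = 3; limma adjusted p = 0.567), while ITGB5 went from 154 ± 6.67 to 194 ± 3.30 FPKM, a log2 change of 0.33 (SE 0.04, limma adjusted p = 2.45e-05). ITGB3, the alternative partner of ITGAV, fell by 0.42 on the log2 scale. THBS1, the matrix protein thrombospondin that binds CD36, fell by 1.00 on the log2 scale, from 136 ± 8.27 to 67.5 ± 4.08 FPKM. The lysosomal membrane receptor SCARB2, a relative of SCARB1 and CD36, rose by 0.47. Of 21 genes in this list 9 were tested, 4 rose and 3 fell while 2 did not pass, at a median of 0.06 on the log2 scale. The share called was 77.8%, against 67.7% of all genes tested. The 12 genes below the filter included the phagocyte receptors STAB1, TIMD4, MEGF10, MSR1 and CD14 and the MERTK ligands TUB and TULP1.

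Of 22 tested genes of engulfment signalling and actin assembly, 12 rose and 7 fell while 3 did not pass, at a median of 0.16 on the log2 scale. The share called was 86.4%, against 67.7% of all genes tested. SRC, a kinase that relays integrin and TAM signals, went from 29.1 ± 1.76 to 15.0 ± 0.827 FPKM (SD, n = 3), a log2 change of -0.91 (SE 0.06, limma adjusted p = 1.12e-07). The phosphoinositide 3-kinase subunit genes PIK3R1 and PIK3CA rose by 0.56 and 0.43 on the log2 scale, and WASL, an activator of actin branching, rose by 0.51. MYO7A, the myosin that moves phagosomes in pigment epithelium, fell by 0.43 on the log2 scale, and PTK2, the focal adhesion kinase downstream of the ITGAV and ITGB5 integrin, rose by 0.12. Both were named after their values were seen.

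In the phagosome maturation list 11 of 13 tested genes rose (84.6%, against 39.2% of all genes tested) and 0 fell (against 28.4%) while 2 did not pass, at a median of 0.20 on the log2 scale. The class III phosphoinositide 3-kinase PIK3C3 rose by 0.52 and its partner BECN1 by 0.44 on the log2 scale. RUBCN, which directs the light chain protein LC3 to phagosomes, rose by 0.37, and MREG, a phagosome degradation factor of pigment epithelium, by 0.27. Several of these are autophagy or lysosome genes, whose rise in these libraries was known when the list was drawn. The 0 falls are by limma at the adjusted threshold, with 0 at an unadjusted p under 0.05, and 1 gene fell without the filter and 1 without DMSO replicate 1. CTSS, in the list but below the filter, was at 0.46, 0.40 and 0.61 FPKM in DMSO and 0.14, 0.05 and 0.06 in cinobufagin libraries. The rises numbered 8 to 11 over the alternatives, with 8 without DMSO replicate 2 and 9 under median centring.

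Among genes that release the receptors from the cell surface, TIMP3, an inhibitor of the sheddases, fell by 0.59 on the log2 scale, from 137 ± 0.931 to 90.5 ± 0.898 FPKM (SD, n = 3). ADAM10 was at 45.4 ± 1.22 and 44.9 ± 1.58 FPKM (limma adjusted p = 0.778). ADAM17, the main sheddase of MERTK, rose by 0.15 on the log2 scale (limma adjusted p = 0.0415), a call that 8 of 13 alternatives did not make. Its cofactor RHBDF2 fell by 0.23. In this list of 4, 1 rose and 2 fell while 1 did not pass, around a median log2 fold change of -0.12. The share called was 75.0%, against 67.7% of all genes tested. The falls numbered 1 without DMSO replicate 3 or without cinobufagin replicate 1, and the rises 0 without DMSO replicate 1 or without cinobufagin replicate 1 or 3.

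GAS6 and PROS1 bind phosphatidylserine once their glutamates are carboxylated with vitamin K. The carboxylase GGCX rose by 0.22 on the log2 scale, from 24.9 ± 1.23 to 29.2 ± 0.208 FPKM, while the reductase VKORC1, which recycles the vitamin, fell by 0.20. NQO1, a quinone reductase, went from 103 ± 0.533 to 213 ± 4.31 FPKM (SD, n = 3), a log2 change of 1.04 (SE 0.04, limma adjusted p = 9.18e-10), and the protease FURIN rose by 0.53. Of these 5 genes 3 rose and 1 fell while 1 did not pass, at a median of 0.22 on the log2 scale. The share called was 80.0%, against 67.7% of all genes tested.

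Of 8 tested genes of phosphatidylserine exposure and its counter-signal, 3 rose and 1 fell while 4 did not pass, at a median of 0.08 on the log2 scale. The share called was below the 67.7% of all genes tested. Both the share rising and the share falling were below those of all genes tested, 39.2% and 28.4%. The scramblase ANO6 and the flippase ATP11A rose by 0.31 and 0.32 on the log2 scale. CD47, a surface signal against engulfment, rose by 0.25, and its receptor SIRPA fell by 0.27.

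Sterol and fatty acid genes related to SCARB1 and CD36 moved both ways. Of 14 tested, 6 rose and 5 fell while 3 did not pass, at a median of 0.08 on the log2 scale. The share called was 78.6%, against 67.7% of all genes tested. The fatty acid carrier FABP5 went from 36.1 ± 3.22 to 16.9 ± 2.94 FPKM (SD, n = 3), a log2 change of -1.06 (SE 0.10, limma adjusted p = 2.03e-06). The lipoprotein gene APOE fell by 0.90 on the log2 scale, whereas PPARA, a nuclear receptor of fatty acid breakdown, rose by 0.87 on the log2 scale. PDZK1, the scaffold that holds SCARB1 in liver, was below the filter.

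TAM receptors restrain innate signalling through the interferon receptor and the SOCS proteins. The interferon receptor genes IFNAR1 and IFNAR2 rose by 0.46 and 0.50 and STAT3 by 0.62 on the log2 scale, while SOCS3 fell by 0.58. Any link of these changes to the TAM receptors was not tested. Of 11 tested transcription factors and feedback genes, 4 rose and 1 fell while 6 did not pass, at a median of 0.05 on the log2 scale. The share called, 45.5%, was below the 67.7% of all genes tested. The falls numbered 2 without DMSO replicate 1. YAP1 and TEAD1, which can drive AXL, were among those that did not pass (limma adjusted p = 0.491 and 0.792), and both were named after their values were seen. Their part in the change of AXL was not tested.

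**Figure D4:**
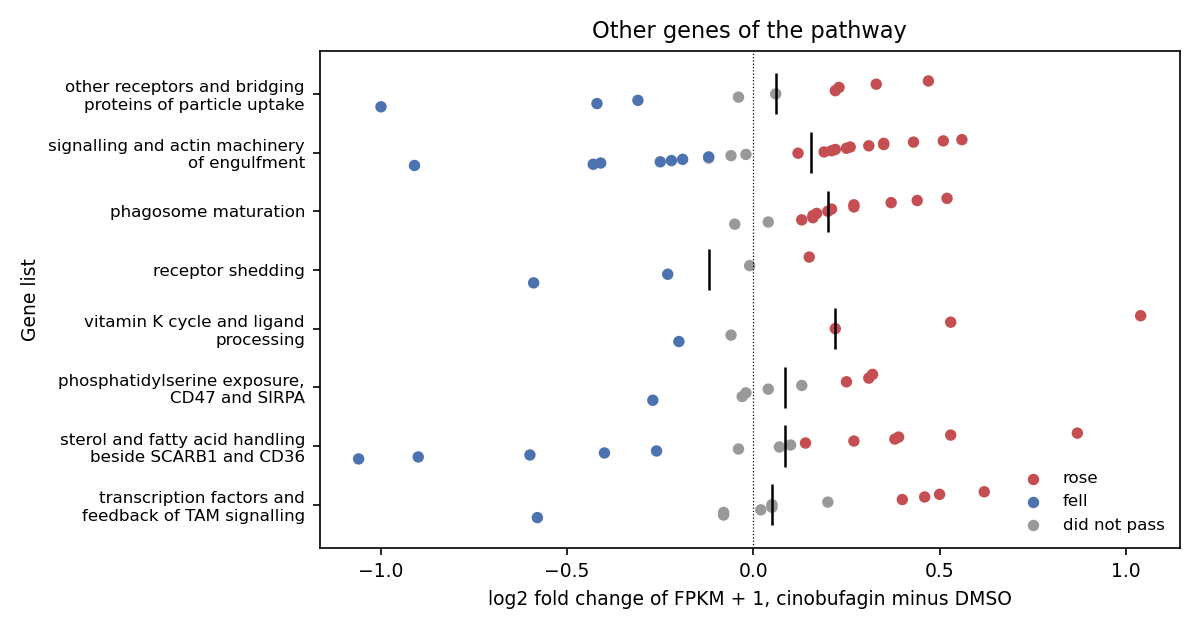
Log2 fold change of FPKM + 1, cinobufagin minus DMSO, for each tested gene of the 8 lists, with 1 point per gene and a black line at the list's median. The points are red for a rise, blue for a fall and grey where a gene did not pass. Phagosome maturation is the list with 11 rises and 0 falls among 13 genes tested. The rise of several of its genes was known when the list was drawn, and its gene CTSS, below the filter, is not shown.

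The patterns most like those of MERTK and AXL were found by Pearson's r of log2(FPKM + 1) over the 6 libraries. For MERTK they included those of PAIP1 (r = 0.9986) and KIZ (r = 0.9984), with log2 fold changes of 0.23 and 0.69. For AXL they were those of RAN (r = 0.9996), PRKAG2 (r = 0.9995) and TNFRSF14 (r = 0.9994), with log2 fold changes of -0.51, -0.50 and -0.86. Such values mainly reflect the difference between the groups, and 67 genes for MERTK and 479 for AXL had an r above 0.99.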

How the data were processed

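Total RNA libraries of ARPE-19 cells were analysed from the authors' deposited table, which gives FPKM per gene and library to 2 decimals, per the file headers. Per the submitters' processing notes, GRCh38.p13, RSEM 1.3.1, Bowtie2 and DESeq2 1.4.5 were involved, in roles that are not stated. The sources used here do not give RNA selection, strand or depth, so no counting error was computed. Control columns are headed mock and were taken as the DMSO libraries of the same number. A further 19 lines held no gene ID and were left out. Symbols came from a RefSeq table (GRCh38.p14), positions from GENCODE 29 (GRCh38). A symbol was found for 17881 of 17945 genes, and 0 pairs of libraries were identical.

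Every gene that reached 1 FPKM in 3 or more libraries was fitted as log2(FPKM + 1) with limma 3.58.1 (trend, no block) in R 4.3.3, with Benjamini-Hochberg adjustment over all genes tested and a threshold of 0.05. FPKM are relative to the library total, so a shift in abundant genes moves all others. SD is over 3 libraries in FPKM, SE is on the log2 scale. Shares were tested by exact permutation (SciPy 1.17.1). The fit was tested on simulated data in which few genes changed, none at a level as low as that of MERTK. That simulation therefore does not cover MERTK or a data set in which 67.7% of genes are called. Named were all 8 genes, up to 4 called genes with the largest change per list, ITGAV, ITGB5, ADAM10, ADAM17, GGCX and VKORC1, and the 3 genes most like MERTK and AXL. Some genes that this rule names are not reported here. The genes and lists were chosen with earlier results of these data known. Alternatives were no trend, quantile normalization, median centring, other filters, another pseudocount, a replicate block, a minimum change and leaving out each library. Figures were drawn with matplotlib 3.10.9.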

Additional observations from a re-analysis of the deposited data

How the results depend on the processing

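MERTK, AXL, TYRO3, MFGE8 and SCARB1 kept their direction and stayed called under each of the 13 alternatives without a minimum change (12 for MERTK, which does not pass a filter of at least 5 FPKM). Their log2 fold changes ranged from 0.62 to 1.03, -0.85 to -0.76, -0.90 to -0.69, 0.22 to 0.31 and -0.38 to -0.29. With a minimum log2 fold change of 1, calls went from 7849 to 498 over all genes and from 5 to 0 of the 8 genes. Leaving out each library in turn gave 7131 to 7591 calls over all genes, 5 to 6 among the 8 genes and 57 to 64 in the pathway lists. GAS6 did not pass under any of its 13 alternatives, with adjusted p from 0.155 to 0.783 (limma). Same-numbered libraries did not deviate together (correlations of -0.105 to -0.009), so the numbers were not taken to pair the samples, and the best match of no library was its own number. The replicate block gave 7690 calls, 5 of the 8 genes and 60 in the pathway lists. It left the differences in share at -1.84, 1.83 and 0.613 percentage points for AXL, GAS6 and SCARB1. The unfiltered fits of CD36 that leave out a library or use a pseudocount of 0.1 were added after seeing the data, and the latter gave -1.05 (limma adjusted p = 0.0149). Values to 2 decimals limit the precision of CD36, and with 3 libraries a group the share tests cannot give a p below 0.1.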
